A study of Mus musculus with 4 samples.

Results

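The alpha and beta globin loci of the mouse were examined in ATAC-seq peak lists from embryonic limbs. All peaks overlapping chr11:32150000-32320000, which holds the alpha globin genes and the neighbouring gene Nprl3, or chr7:103790000-103920000, which holds the beta globin genes and their locus control region, were taken (mm10, 1-based). This gave 53 of 136975 peaks, of which 22 were among the 99427 peaks of the E10.5 list and 31 among the 37548 peaks of the E11.5 list. The choice used position only.

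Globin genes encode the chains of haemoglobin and are transcribed in red cell precursors. Each mouse cluster is arranged along the chromosome with an embryonic gene nearest to its enhancers and adult genes farther away. The alpha enhancers lie upstream of the embryonic gene Hba-x, most of them inside the housekeeping gene Nprl3, whose RefSeq synonyms include Mare, a name of the alpha regulatory element. The beta genes are driven by the locus control region, a row of hypersensitive sites upstream of the embryonic gene Hbb-y. GATA1, TAL1, KLF1 and NFE2 are the best known factors acting at both. Limb buds are supplied with blood in which primitive red cells, still nucleated, circulate at these stages.

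The 4 samples are wild-type fore- and hindlimb cells, 2 replicates titled E10.5 and 2 titled E11.5, where E means embryonic day. The treatment protocol writes the earlier stage as E10. Cells were freed with trypsin and fixed in paraformaldehyde before tagging with Tn5, a transposase that inserts adaptors into accessible DNA. No group carries an allele or agent, and strain, sex and the number of embryos pooled are not given in the sources used here. Replicates were merged into a single list per stage, so no value has a replicate spread and no difference between stages could be tested. Depth is unknown, and library set, blood content and stage cannot be told apart. In such mixed tissue, fewer cells of a type and less accessible chromatin per cell cannot be told apart either. The smallest signal value was 200.002 in the E10.5 list and 200.006 in the E11.5 list, so weaker sites are not listed, and a site missing from a list is not shown to be closed.

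The sequences before the start sites of 6 globin genes are shown because the regions described next lie over 5 of them, while the sixth, Hbb-bh2, had none in either list. Each line gives the 150 bases before the RefSeq start site, 5′ to 3′ (RefSeq, GRCm38.p6, the build of mm10). Capitals mark matches, on either strand, to the TATA element forms TATAAA or CATAAA or GATAAA or TATAAG, to AGATAA or TGATAA (letters bound by GATA factors), to CACCC (letters bound by KLF factors) and to CCAAT. Matches farther upstream are counted but lie outside the printed part.
Hba-x (chr11:32276450-32276599, plus strand): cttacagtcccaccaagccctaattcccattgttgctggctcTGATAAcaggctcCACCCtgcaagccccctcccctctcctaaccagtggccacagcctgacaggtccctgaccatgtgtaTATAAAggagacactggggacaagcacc
Hba-a1 (chr11:32283522-32283671, plus strand): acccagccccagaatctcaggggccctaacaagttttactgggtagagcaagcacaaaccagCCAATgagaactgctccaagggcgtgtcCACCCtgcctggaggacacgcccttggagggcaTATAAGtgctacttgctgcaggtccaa
Hbb-y (chr7:103853208-103853357, minus strand): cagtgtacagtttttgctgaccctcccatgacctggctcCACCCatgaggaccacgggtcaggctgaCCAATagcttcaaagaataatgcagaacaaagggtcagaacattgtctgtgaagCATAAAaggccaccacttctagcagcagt
Hbb-bs (chr7:103827929-103828078, minus strand): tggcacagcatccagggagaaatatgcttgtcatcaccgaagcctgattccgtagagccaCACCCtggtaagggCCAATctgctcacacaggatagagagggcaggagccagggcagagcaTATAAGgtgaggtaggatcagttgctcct
Hbb-bt (chr7:103813924-103814073, minus strand): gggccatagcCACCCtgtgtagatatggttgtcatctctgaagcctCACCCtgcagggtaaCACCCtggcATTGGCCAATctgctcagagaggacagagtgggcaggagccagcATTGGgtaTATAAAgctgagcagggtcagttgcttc
Hbb-bh2 (chr7:103840522-103840671, minus strand): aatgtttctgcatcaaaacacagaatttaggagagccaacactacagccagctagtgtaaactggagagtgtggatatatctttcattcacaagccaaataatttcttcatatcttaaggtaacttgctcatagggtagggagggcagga

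In the 250 bases before the start site, CACCC was found in 6 of the 9 globin genes with an entry in the promoter table (Hba-x, Hba-a1, Hba-a2, Hbb-y, Hbb-bs and Hbb-bt) and in 52.0% of all 32851 promoters. TGATAA was found in 4 of the 9 (Hba-x, Hba-a1, Hba-a2 and Hbb-y) and in 7.94% of all. AGATAA was found in Hbb-bs and Hbb-bh2, against 9.99% of all. CCAAT was found in 7 of the 9, against 33.8% of all. A TATA form began 27 to 30 bp before the start site in each of the 6 genes with CACCC. It read TATAAA in Hba-x and Hbb-bt (12.4% of all promoters held these letters), CATAAA in Hbb-y (10.8%) and TATAAG in Hba-a1, Hba-a2 and Hbb-bs (6.65%). The last form was added after the sequences had been seen. GATAAA, in Hbb-bh2, began 166 bp upstream, overlaps AGATAA there by all but 1 base, and occurred in 8.79% of all. A second CATAAA in Hbb-y, 158 bp upstream, shares 2 bases with TGATAA on the other strand. These matches describe letters and not bound sites.

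These promoters are poor in CpG, the dinucleotide that is frequent in housekeeping promoters. In the 300-base windows the ratio of observed to expected CpG was 0.0633 at Hbb-bt, 0.0714 at Hbb-y, 0.0853 at Hba-x, 0.109 at Hbb-bs and 0.188 at Hba-a1. The median of all promoters was 0.384. The theta genes Hbq1a and Hbq1b, divergent globin genes within the alpha cluster, had 0.446 and 0.663, and Nprl3 had 1.01.

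The beta globin window held 3 regions in the E10.5 list and 14 in the E11.5 list, although the E10.5 list is the longer one. These are 2.31 and 10.8 regions per 100 kb. The mean density over all chromosomes is not given here. The 3 E10.5 regions lay far upstream, among olfactory receptor genes. Every region at a beta globin gene or in the locus control region was in the E11.5 list only, and there were 11 of these 14, against 8.22% of the whole E11.5 list. The other 3 (21.4%) were shared, meaning that they overlapped a region of the E10.5 list by at least 1 bp, against 91.8% of the whole list. All 3 E10.5 regions were shared, against 32.3% of the whole E10.5 list.

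**Figure D1:**
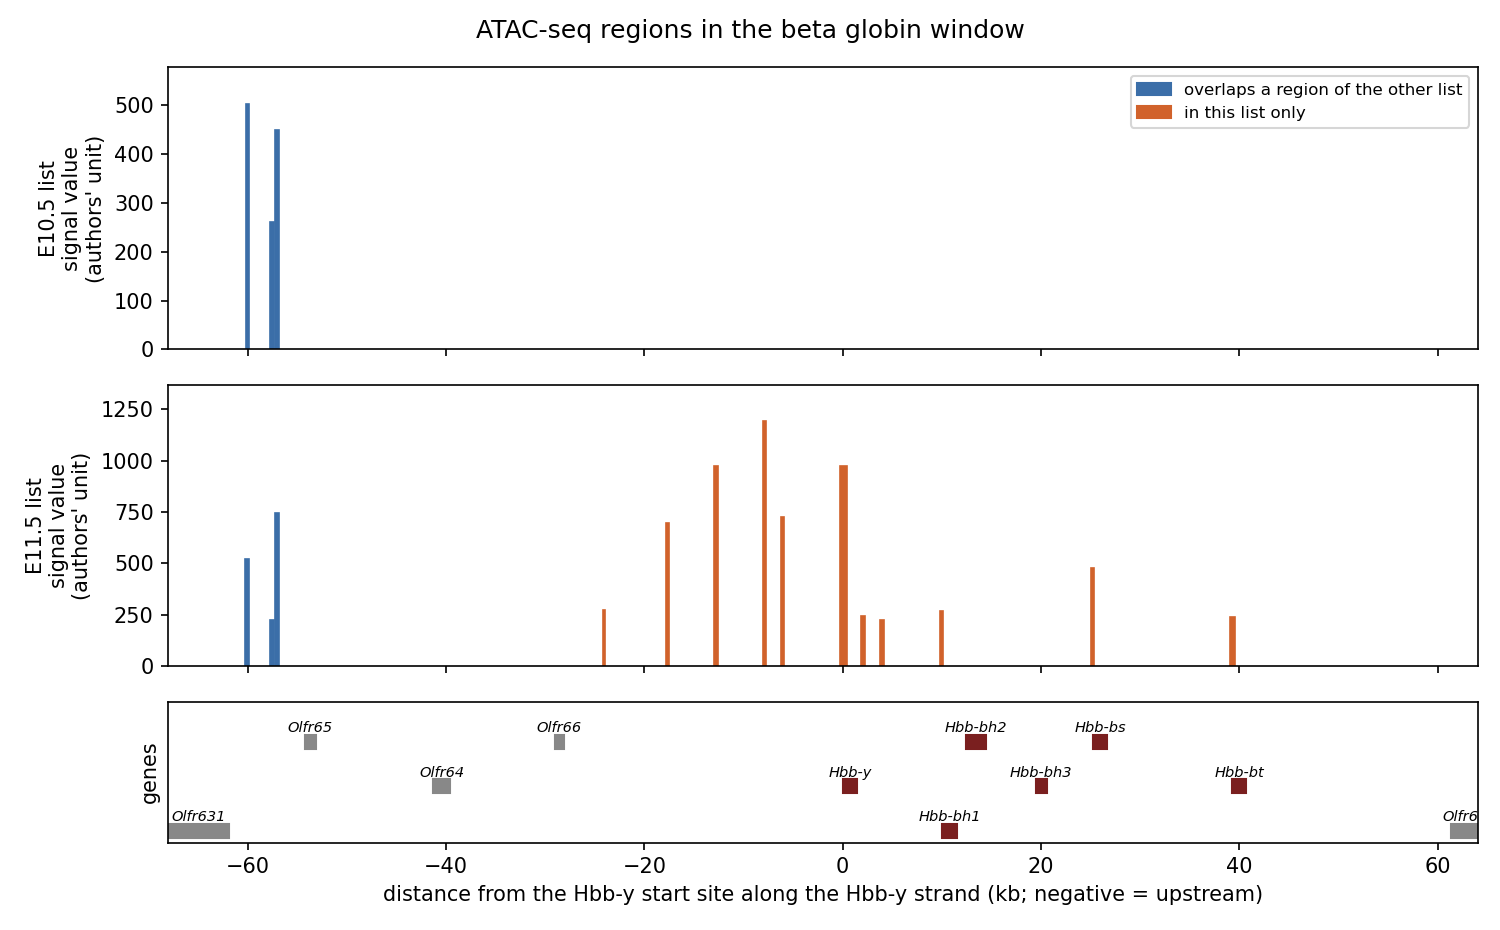
Regions of the beta globin window in the E10.5 list (top) and the E11.5 list (middle), with genes below. The horizontal axis is the distance in kb from the Hbb-y start site, negative upstream, bar height is the authors' signal value on separate axes, thin outlines keep narrow regions visible, and the 11 orange regions of the E11.5 list have no E10.5 overlap.

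The strongest region of the beta window lay in the locus control region, 7.95 kb upstream of the Hbb-y start site, at chr7:103860949-103861264. Its E11.5 signal value was 1190, which ranked 14398 of 37548, and its −log10 p was 7.70. Because it is only 316 bp wide, it stood higher by signal per bp, at 3.77, within the top 4.43% of the list. The signal value is a total over the peak that grows with width, so narrow regions rank low by it.

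The locus control region held 4 further regions, all between genes. The one 6.06 kb upstream of Hbb-y, at chr7:103859173-103859447, had a signal value of 727 (rank 18716). The one 12.7 kb upstream, at chr7:103865755-103866146, had 975 (rank 16049). The next, 17.7 kb upstream at chr7:103870684-103871019, had 695 (rank 19170). The outermost lay 24.1 kb upstream at chr7:103877164-103877405 and was the weakest of the 5, with 274 (rank 31903). The 4 nearer to Hbb-y had a −log10 p between 5.91 and 7.70, and the outermost had 4.06.

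Hbb-y encodes the embryonic epsilon-y chain and is the gene closest to the locus control region. Its start site was covered by the E11.5 region chr7:103852744-103853431, with a signal value of 972 (rank 16082, −log10 p 5.68). This region, 688 bp wide, was the widest of the window. Hbb-bh1, the other embryonic beta-like gene, had a region over its start site at chr7:103843074-103843361 with a signal value of 270 (rank 32101). The adult gene Hbb-bs had one at chr7:103827827-103828153 with 480 (rank 23400), and the adult gene Hbb-bt one at chr7:103813615-103814112 with 239 (rank 34247). Hbb-bh2 and the pseudogene Hbb-bh3 had no region within 1 kb of their start sites. The nearest E11.5 regions were 2340 and 5579 bp away.

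Among the beta genes, the order of E11.5 signal values was therefore Hbb-y, Hbb-bs, Hbb-bh1 and Hbb-bt. These are single values of a joint list, and whether neighbours in this order differ could not be tested. By signal per bp, Hbb-bs (1.47) stood above Hbb-y (1.41), followed by Hbb-bh1 (0.939) and Hbb-bt (0.480). Between Hbb-bh1 and Hbb-y there were a pair of weak regions, at chr7:103849027-103849405 (225, rank 35312) and chr7:103850985-103851368 (246, rank 33739), both downstream of Hbb-y.

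The 3 shared regions lay between the olfactory receptor genes Olfr65 and Olfr631, 57.0 to 60.1 kb upstream of Hbb-y. At chr7:103910085-103910442 the E10.5 list gave a signal value of 448 (rank 70305 of 99427), and the E11.5 list gave 745 (rank 18457) at chr7:103910064-103910471. Their summits were 11 bp apart. At chr7:103910593-103910974 the E10.5 value was 260 (rank 89658) and the E11.5 value, at chr7:103910586-103910935, was 223 (rank 35450), with summits at the same base. At chr7:103913089-103913361 the E10.5 value was 502 (rank 66461), and at chr7:103913074-103913476 the E11.5 value was 523 (rank 22339), with summits 126 bp apart. None of the 5 olfactory receptor genes that reach into the window had a region within 1 kb of its start site in either list.

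The E10.5 list held no region between position 102687861 and position 103910085 of chromosome 7, a gap of 1222 kb that includes all beta globin genes. The E11.5 list held 13 regions in that gap, 11 of them at the beta globin locus. Gaps at least as long numbered 92 of 99335 in the E10.5 list, where the median gap was 7.98 kb. The 13 E11.5 regions form an unbroken run without E10.5 overlap, which follows from the gap and is no separate observation. The E11.5 list has 2028 such runs, with a median length of 1 region. Counting the one at beta globin, 15 were at least that long. They lay on 5 chromosomes, several of them close together on chromosome 8. Over the whole E11.5 list the shared fraction was lowest in the weakest signal decile, at 83.6%. For the 11 beta globin regions, the shared fraction of the decile that each belonged to ranged from 83.6% to 95.4%.

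The alpha globin window held 19 regions in the E10.5 list and 17 in the E11.5 list, 14 of them shared from each side. This is 73.7% of the E10.5 regions, against 32.3% of that whole list, and 82.4% of the E11.5 regions, against 91.8%. The globin promoters and the housekeeping promoters had regions in both lists. The 3 unshared E11.5 regions lay upstream of Hba-x, and 2 of them within Nprl3.

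**Figure D2:**
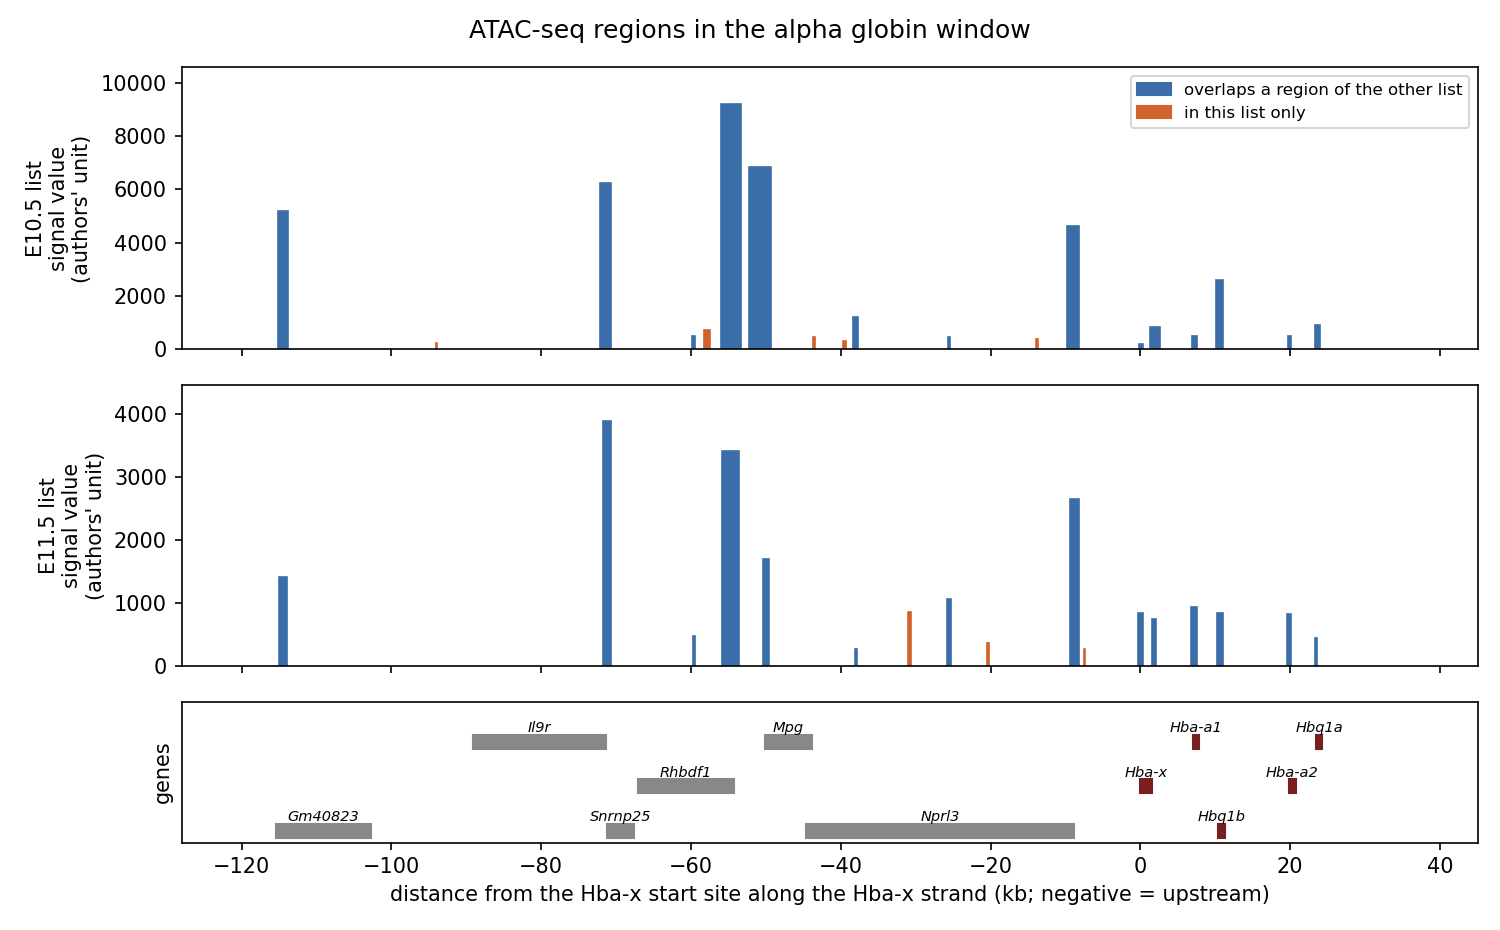
Regions of the alpha globin window in the E10.5 list (top) and the E11.5 list (middle), with genes below. The horizontal axis is the distance in kb from the Hba-x start site, negative upstream, bar height is the authors' signal value on separate axes, thin outlines keep narrow regions visible, and orange marks the 5 E10.5 and 3 E11.5 regions without overlap.

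The housekeeping end of the window carried the highest signals. The region over the start of Rhbdf1, which encodes an inactive rhomboid protein, had an E10.5 signal value of 9191 (chr11:32220675-32223315, rank 2481) and an E11.5 value of 3414 (chr11:32220786-32223010, rank 5977). The region over the adjacent starts of Il9r, the interleukin 9 receptor gene, and Snrnp25, a spliceosome gene, had 6242 at E10.5 (chr11:32204511-32205964, rank 6589) and 3887 at E11.5 (chr11:32204821-32205907, rank 4849). Mpg, a DNA glycosylase gene, had 6855 at E10.5 (chr11:32224407-32227290, rank 5379) and 1704 at E11.5 (chr11:32226173-32227004, rank 11617). Nprl3, a regulator of the mTORC1 pathway, had 4633 at E10.5 (chr11:32266814-32268359, rank 10928) and 2661 at E11.5 (chr11:32267185-32268353, rank 8081). A region beside the start of the long noncoding RNA gene Gm40823 had 5192 at E10.5 (chr11:32161529-32162839, rank 9137) and 1415 at E11.5 (chr11:32161586-32162671, rank 13035). In the E10.5 list these 5 were the strongest of the window, and in the E11.5 list they were again the 5 strongest.

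The regions at Hba-x, Hba-a1 and Hba-a2 had E10.5 signal values under the median of that list, 838, and those at Hbq1b and Hbq1a had values above it. Hba-x encodes the embryonic zeta chain. Its start site was covered by the E10.5 region chr11:32276361-32276915, whose signal value of 212 was the lowest of the window and ranked 97202 of 99427. In the E11.5 list the region chr11:32276270-32276904 had a value of 844, rank 17309 of 37548.

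Hba-a1 and Hba-a2 encode the adult alpha chain. At Hba-a1 the E10.5 value was 488 (chr11:32283462-32284123, rank 67317) and the E11.5 value 938 (chr11:32283371-32284123, rank 16399). At Hba-a2 the E10.5 value was 484 (chr11:32296268-32296693, rank 67631) and the E11.5 value 827 (chr11:32296157-32296698, rank 17506). The 2 genes are near copies. Their 300-base promoter windows shared an identical stretch of 297 bases, so that the Hba-a2 sequence is not printed, and reads from one copy cannot be told from the other there. How reads with several matches were handled is not given in the sources used here, and both values are uncertain for that reason.

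The theta genes had stronger E10.5 regions than the alpha genes. At Hbq1b the E10.5 value was 2605 (chr11:32286634-32287607, rank 21063) and the E11.5 value 853 (chr11:32286822-32287608, rank 17208). At Hbq1a the E10.5 value was 930 (chr11:32299927-32300560, rank 46560) and the E11.5 value 447 (chr11:32299926-32300155, rank 24362). These genes are copies too, with 95.5% identity over 200 promoter bases. One more shared region lay behind Hba-x, 1.61 kb downstream of its start site at E10.5 (chr11:32277864-32279181, 821) and 1.65 kb at E11.5 (chr11:32278155-32278715, 746).

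Upstream of Hba-x, inside Nprl3, the region 25.6 kb from the Hba-x start site was in both lists. Its E10.5 value was 469 (chr11:32250907-32251213, rank 68807) and its E11.5 value 1063 (chr11:32250731-32251297, rank 15323), with summits 1 bp apart. A region 30.8 kb upstream (chr11:32245633-32246010) was in the E11.5 list only, with 870 (rank 17055, −log10 p 6.03). So was a region 20.3 kb upstream (chr11:32256181-32256448), with 375 (rank 26884). The third E11.5-only region lay 7.45 kb upstream, between Nprl3 and Hba-x (chr11:32269057-32269254), with 269 (rank 32186). In the signal deciles of these 3, the shared fraction of the whole list was 85.5% to 91.1%.

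Of the 5 unshared E10.5 regions, 3 lay in Nprl3, at 43.6, 39.5 and 13.8 kb upstream of Hba-x (chr11:32232844-32233192, chr11:32236931-32237340 and chr11:32262629-32262967), with signal values of 462, 303 and 383. Another lay in Rhbdf1 (chr11:32218392-32219109, 707) and 1 between genes (chr11:32182572-32182713, 233). In their signal deciles 3.63% to 13.6% of the whole E10.5 list was shared, so over that list regions of this strength seldom were. In this window other regions of the same deciles were shared. These were the regions at Hba-x, Hba-a1 and Hba-a2, the one behind Hba-x, and those 25.6 and 59.5 kb upstream. Elsewhere in Nprl3, the shared region 38.0 kb upstream had 1229 at E10.5 (chr11:32238170-32238923) and 283 at E11.5 (chr11:32238536-32238750). A shared region in Rhbdf1, 59.5 kb upstream, had 486 at E10.5 (chr11:32216798-32217169) and 478 at E11.5 (chr11:32216910-32217172).

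Signal values of the lists are not stated to share a scale, so each alpha region was also divided by the Nprl3 promoter region of its own list, a ratio chosen after the regions had been seen. The Hba-x region stood at 0.0458 of Nprl3 in the E10.5 list and at 0.317 in the E11.5 list. Hba-a1 stood at 0.105 and 0.353, and Hba-a2 at 0.104 and 0.311. The region 25.6 kb upstream stood at 0.101 and 0.399. Some shared regions away from the globin promoters moved the same way, with the one in Rhbdf1 59.5 kb upstream at 0.105 and 0.180 and the one behind Hba-x at 0.177 and 0.281. The shared region 38.0 kb upstream stood at 0.265 and 0.106. The E11.5 ratio was 6.92 times the E10.5 ratio at Hba-x, 3.34 times at Hba-a1 and 2.97 times at Hba-a2. It was 3.95 times at the region 25.6 kb upstream, 1.71 times at the region in Rhbdf1 and 1.58 times behind Hba-x. The Hba-x factor rests on an E10.5 signal value of 212 (−log10 p 3.05), close to the smallest of that list, 200.002. These signal totals depend on the width called at each stage. The Mpg region, for one, was 2884 bp wide in the E10.5 list and 832 bp wide in the other. Each of 5 housekeeping or noncoding promoter regions was therefore taken as the reference in turn, by signal and by signal per bp. At Hba-x the factor ran from 6.38 to 16.0 by signal and from 4.03 to 10.6 per bp. It ran from 3.08 to 7.73 and from 1.96 to 5.13 at Hba-a1, and from 2.74 to 6.87 and from 1.56 to 4.08 at Hba-a2. At the upstream region it ran from 3.64 to 9.13 and from 1.43 to 3.74. With Mpg as the reference these factors were the highest by signal and the lowest per bp. With Nprl3 as the reference, the factor per bp was 1.83 in Rhbdf1, 2.81 behind Hba-x and 1.62 at the region 25.6 kb upstream. The shift was thus not limited to the globin promoters, though only the region in Rhbdf1 lies away from both Nprl3 and the globin genes.

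The theta genes did not share this pattern on every scale. Hbq1b stood at 0.562 of Nprl3 in the E10.5 list and 0.320 in the E11.5 list, and Hbq1a at 0.201 and 0.168. The factor was 0.570 at Hbq1b and 0.836 at Hbq1a. It passed 1 relative to Gm40823 or Mpg at both genes, relative to Rhbdf1 at Hbq1a, and by signal per bp at Hbq1a. Relative to Nprl3, other promoters fell too by signal, with 0.474 at Gm40823, 0.647 at Rhbdf1 and 0.433 at Mpg, against 1.085 at Il9r and Snrnp25. By signal per bp the factor was 0.433 at Gm40823, 0.580 at Rhbdf1 and 0.533 at Hbq1b. It was above 1 at Mpg (1.13) and at the region 38.0 kb upstream (1.06). Over the 5 references the factor per bp ran from 1.54 to 4.025 at Hbq1a, close to the range at Hba-a2. At Hbq1b it ran from 0.470 to 1.23. No spread is known for any of these ratios, and none was tested.

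**Figure D3:**
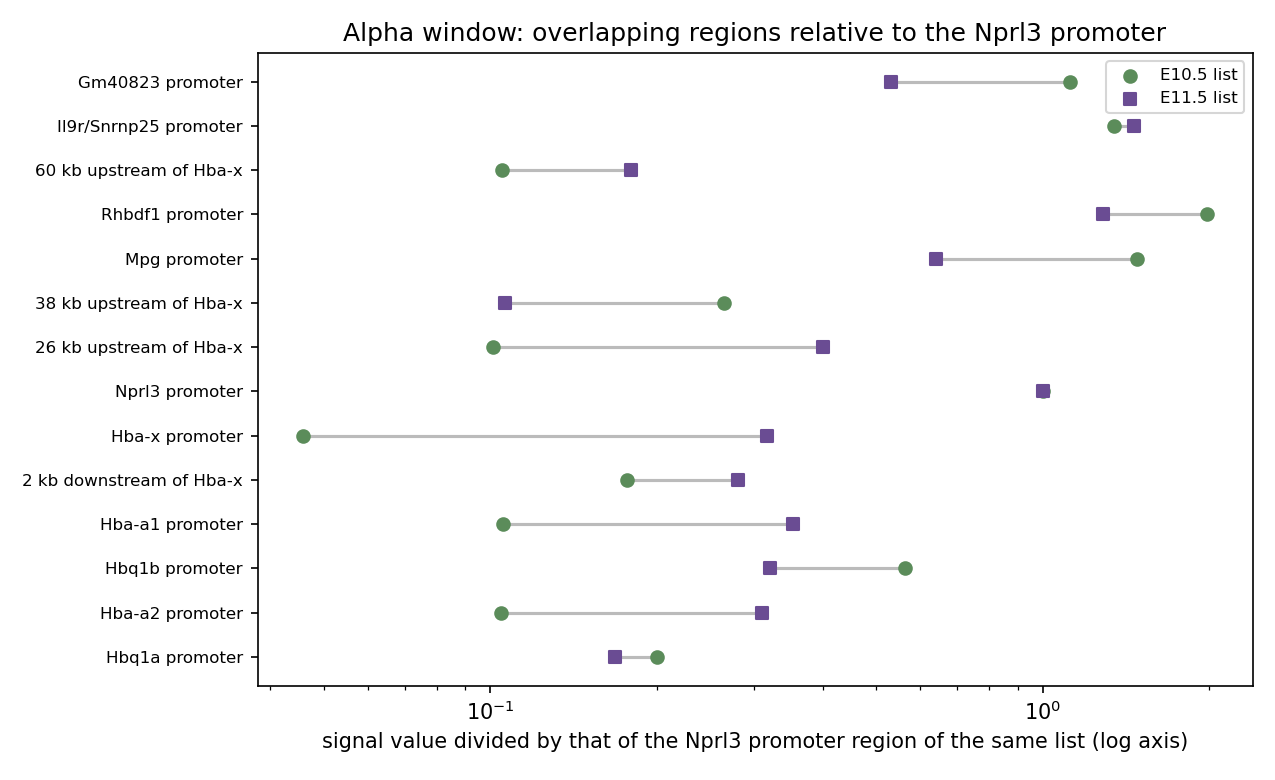
Shared regions of the alpha globin window, each as its signal value divided by that of the Nprl3 promoter region of the same list (log axis), for E10.5 (circles) and E11.5 (squares). Hba-x moves from 0.0458 to 0.317. Hba-a1, Hba-a2, the region 25.6 kb upstream, the one in Rhbdf1 59.5 kb upstream and the one behind Hba-x shift the same way. Hbq1b, Hbq1a, the Gm40823, Rhbdf1 and Mpg promoters and the region 38.0 kb upstream lie the other way. By signal per bp, which is not plotted, Hbq1a, Mpg and the region 38.0 kb upstream do not.

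Of the 11 globin genes located in the 2 windows, the E10.5 list gave 5 a promoter region (within 1 kb of the start site) and the E11.5 list gave 9. Over all 21528 protein-coding genes with a known strand, the E10.5 list covered 66.3% of promoters and the E11.5 list 60.0%. The 5 genes of the alpha cluster had one in both lists (59.6% of all), and Hbb-bh2 and Hbb-bh3 in neither (33.3% of all). These counts depend on the threshold: with −log10 p of at least 5 the E10.5 list gave 2 globin genes a promoter region and the E11.5 list 4, and with the E10.5 list reduced by signal to the E11.5 number its count was 1. The −log10 p threshold left 56465 E10.5 and 20014 E11.5 regions. Shares of all protein-coding genes under these settings are not given here, so the 66.3% and 60.0% are no background for these counts. The 4 genes with a promoter region at E11.5 only were Hbb-y, Hbb-bh1, Hbb-bs and Hbb-bt, a class that held 0.386% of all protein-coding genes (83 genes). Of these 4, only Hbb-y had a −log10 p of at least 5, at 5.68. Hbb-bh1 had 4.13, Hbb-bs 4.80 and Hbb-bt 4.01. No globin gene had a promoter region at E10.5 only, a class that held 6.71% of all. At each of the 9 genes the region covered the start site itself. The alpha globin pseudogenes Hba-ps3 on chromosome 15 and Hba-ps4 on chromosome 17 had no region within 1 kb in either list.

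Genes typical of red cells, most of them of the membrane, were divided between both lists and the E11.5 list alone. Of 15 located, all had a promoter region in the E11.5 list (60.0% of all protein-coding genes) and 9 had one in the E10.5 list (66.3% of all). The 6 with one at E11.5 only included Slc4a1, the band 3 anion exchanger, with a signal value of 1029, Epb42, which encodes protein 4.2, with 1524, Kel, a blood group antigen gene, with 969, Ermap, an erythroid membrane protein gene, with 537, and Rhag, the Rh-associated glycoprotein gene, with 202. The nearest E10.5 region lay between 5076 bp (Ermap) and 68798 bp (Rhag) from these 5 start sites. The 9 in both lists included Epor, the erythropoietin receptor gene (E10.5 signal value 4182, E11.5 value 721). In 8 of these 9 the E11.5 value was the lower.

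Haem synthesis genes, most of which are active in all cells, were nearly all in both lists. Of 10, 9 had a promoter region in both lists (59.6% of all protein-coding genes). None had one in 1 list only (6.71% of all at E10.5 only and 0.386% at E11.5 only). The exception was Alas2, the erythroid form of the first enzyme of the pathway, with none in either list. Its nearest region was 2186 bp from the start site at E11.5 and 40445 bp at E10.5. Alas1, the form used in other tissues, had an E10.5 value of 3412 and an E11.5 value of 1684.

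Of 14 genes that regulate globin transcription, the E10.5 list gave 11 a promoter region (66.3% of all protein-coding genes had one). The E11.5 list gave 9 (60.0% of all), none of them in that list alone (0.386% of all). Of the 9 regulators in both lists, the E11.5 value was the lower in 6 and the higher in 3 (Tal1, Nfe2 and Atrx). Over the 12824 protein-coding genes in both lists it was the higher in 10.6%, and the lists are not stated to share a scale. In the same tally it was the higher in 3 of 5 globin genes, 1 of 9 red cell genes and 0 of 9 haem synthesis genes. Tal1, a partner of GATA1, had an E10.5 value of 305 and an E11.5 value of 2779. Nfe2, which encodes a subunit of the factor NF-E2, had 840 and 2009. Klf1, the erythroid KLF factor gene, had 4885 and 2495, in regions 354 and 530 bp from its start site. Bcl11a, which encodes a repressor of globin genes, had 13504 and 7186. Gfi1b, a repressor gene of the red cell lineage, had 348 at E10.5 only. Ldb1, which encodes a looping cofactor, had 11541 at E10.5 only, in a region 814 bp from the start site. The nearest E11.5 region was 1944 bp from it, so this call rests on the 1 kb limit. Gata1, Lmo2 and Runx1 had no promoter region in either list. At Gata1 the nearest region was 8595 bp away at E11.5 and 25326 bp at E10.5. One start site per gene was used, the outer end of the gene, so alternative promoters are missed.

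**Figure D4:**
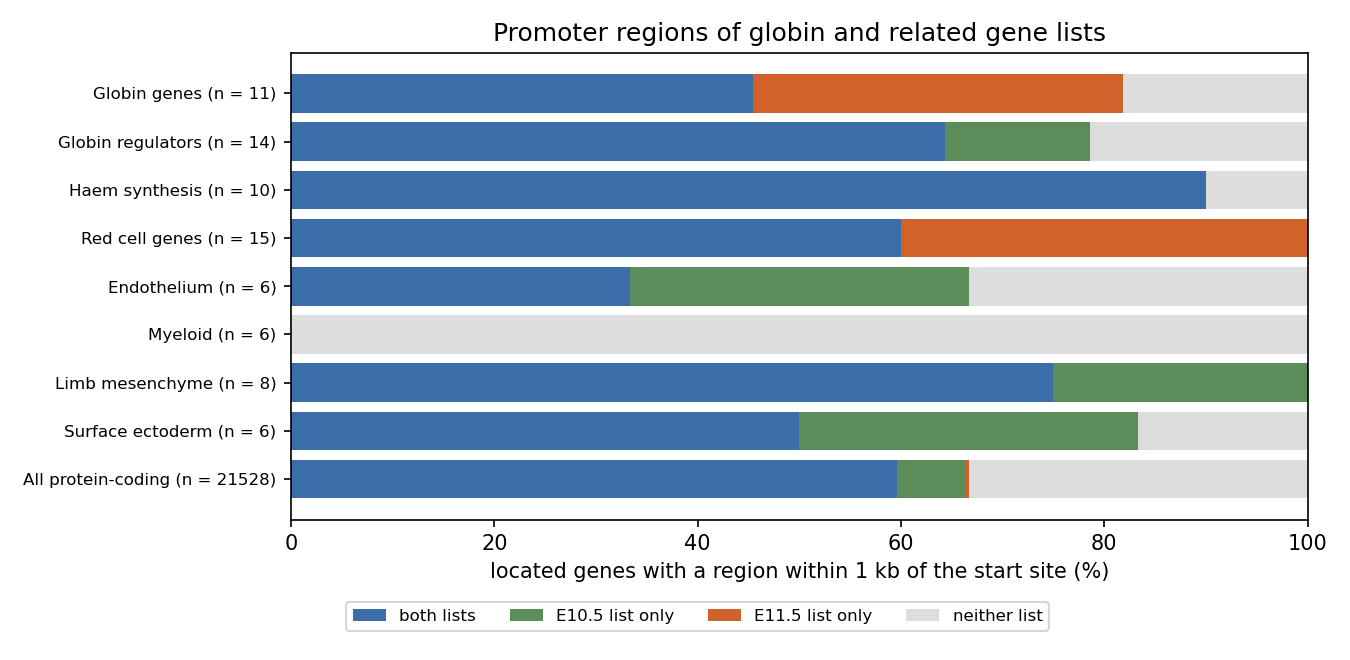
Share of the located genes of each list (percent) with a region within 1 kb of the start site in both lists, in 1 list only or in neither, with all protein-coding genes at the bottom. The orange E11.5-only part is seen for 4 of 11 globin genes and 6 of 15 red cell genes, against 0.386% of all protein-coding genes.

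Markers of other cells are given beside the 66.3% and 60.0% of all protein-coding genes, in lists too small to be read against these shares. Of 6 endothelial markers, 4 promoters were in the E10.5 list and 2 in the E11.5 list. The 8 limb mesenchyme markers gave 8 and 6, and the 6 surface ectoderm markers 5 and 3. None of the 3 lists had a gene at E11.5 only, a class that held just 0.386% of all protein-coding genes. None of 6 myeloid markers had a promoter region in either list. Of 6 erythroid markers, the E10.5 list held 3 (Klf1 and Epor among them) and the E11.5 list 4, with Slc4a1 added and Gata1 and Alas2 missing from both. The part of red cell number in the globin result was not tested.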

How the data were processed

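ATAC-seq peak lists of limb cells, 1 per stage, were analysed. Per the submitters' processing notes, the tools include cutadapt, Bowtie2, SAMtools, deepTools and Genrich on mm10. Their order, versions and settings, any Tn5 shift and the joining of replicates are not given in the sources used here. Each deposited peak carries the authors' signal value (a total that grows with width), a −log10 p-value and a summit. The deposited score is signal per bp times 1000, rounded and capped, in 100% of peaks, and the authors' q-value column holds -1 throughout, so neither was used.

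Ranks were taken by signal within the whole deposited list and are not compared between lists. Overlap of at least 1 bp on chromosomes 1 to 19, X and Y counted as shared. Gene ends came from RefSeq (GRCm38.p6), strand from its promoter table (17492 protein-coding genes) or, by symbol, from GENCODE M1 (4036 genes). The supplied genome is of another build and was not used, so exons and introns are not given. The overlap code was checked on simulated intervals. Python 3.11.15 with pandas 2.3.3 was used.

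The named regions are all those of the 2 windows. Named genes are the globin genes, other genes of the windows with a region, and those of the related lists with a region in 1 list only or in neither, with a few from both lists added after their values were seen. A few genes of the lists are counted but not reported by name here. Members and gene lists were chosen with earlier results of these data known. The alternatives were the peak threshold, list length, ranking, overlap rule, promoter distance and window edges.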

Additional observations from a re-analysis of the deposited data

How the results depend on the processing

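No paired analysis was possible because replicates are merged within a stage, which also prevents leaving one out. Over 17 settings and 36 results, 69 of 116 values stayed within 1.5 times and 41 moved further, with 6 crossing 1. The 69 include counts of E11.5 regions and genes under a shortened E10.5 list, which could not have moved. The tally is therefore no measure of stability. With −log10 p of at least 5 9 alpha regions remained at E10.5 against 11 in the E11.5 list, with 7 shared from each side, the beta window held 1 and 6, with 0 shared from each side, and 2 and 4 globin genes had a promoter region. With the E10.5 list reduced to the E11.5 number by signal, the E10.5 list had 6 alpha regions, all shared (6 from the E11.5 side), 0 beta regions, so 0 shared from each side, 1 globin gene, 1 endothelial marker and 3 surface ectoderm markers. Reduced by −log10 p it had 7 alpha and 0 beta regions. With narrow window edges there were 12 alpha regions at E10.5, and 0 E10.5 and 6 E11.5 regions in the beta window. The stricter thresholds and narrower edges leave fewer regions by construction. Shares of all protein-coding genes under these settings are not given here, so the gene and marker counts have no background. The beta window held more E11.5 than E10.5 regions in each of these 4 settings. Reducing only the E10.5 list could not have changed that order, and the narrow edges leave out all 3 E10.5 regions of the window. The −log10 p threshold, with 1 and 6, acted on both lists. Which of the alpha lists was longer changed with the threshold. The overlap rules and promoter distances run left the counts within 1.5 times. The factor at Hbq1b was 1.20 relative to Gm40823 and 1.32 relative to Mpg. At Hbq1a it was 1.76 and 1.93, with 1.29 relative to Rhbdf1 and 1.74 by signal per bp. The cause was not tested. Rank medians stayed within 1.5 times under the rankings run. Depth is unknown and limits every absence from a list.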

Other observations

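The 83 protein-coding genes with a promoter region in the E11.5 list only included 10 of the globin and red cell lists. Other genes known from blood cells were among them and are named here after their values were seen. Hemgn, which encodes the erythroid nuclear protein hemogen, had a region over its start site with a signal value of 267, Tfr2, the second transferrin receptor gene, had 484, and Steap3, an iron reductase gene of red cell precursors, had 520. The platelet lineage genes Tubb1 (beta-1 tubulin), Gp9 (glycoprotein IX) and Itga2b (integrin alpha IIb) had 706, 380 and 308. The Itga2b region lay 180 bp from the start site and did not cover it. The nearest E10.5 region lay between 1923 bp (Itga2b) and 5189 bp (Gp9) from these 6 start sites, closer than at the beta globin genes, where it lay 56878 to 96162 bp away. The class also held members of multicopy families such as Speer4c (267), where reads with several matches can shape what is listed.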
